A study of Homo sapiens with 12 samples.

Results

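The imprinted snoRNA clusters of chromosomes 14 and 15 were described with 60 probe sets out of the 32321 on the array. A probe set was a member when its annotation held a symbol of the families SNORD113, SNORD114, SNORD115 or SNORD116, or MEG3, MEG8, RTL1, DLK1 or SNRPN, and held no symbol outside this set. There were 9 members on chromosome 14 (DLK1, MEG3, RTL1, 2 of SNORD113 and 4 of SNORD114) and 51 on chromosome 15 (26 of SNORD116 and 25 of SNORD115). Of the 60, 49 carried 1 symbol and 11 carried several. MEG8 had 0 probe sets, and SNRPN was a member only through probe sets that it shared with snoRNA copies. Another 2 probe sets were left out because they also carried SNURF or PWAR4, and these are given with the neighbouring genes.

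RNA from 2 human embryonal carcinoma cell (hECC) lines, 2102Ep at passages 35 to 50 and NTera-2 at passages 40 to 50, was measured on 12 single-colour Affymetrix Human Gene ST arrays. The 4 groups of 3 biological replicates were 2102Ep and NTera-2 cells transfected for 6 hours with either the Ambion Silencer Select SOX2 siRNA (siSOX2) or a non-targeting control of the same series, and grown for another 72 hours. Only 1 siRNA was used, with no rescue, and 2102Ep cells received it with Lipofectamine 2000 while NTera-2 cells received it with Lipofectamine RNAiMAX in another amount. Line, reagent and siRNA amount therefore cannot be told apart, and nothing in the sources used here says whether either line was recloned.

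Both regions hold genes that are read from the chromosome of only 1 parent. In the DLK1-MEG3 domain of chromosome 14 the paternal copy gives the protein-coding genes DLK1, a Notch ligand-like membrane protein, and RTL1, a retrotransposon-derived gene, whereas the maternal copy gives the long non-coding RNAs MEG3 and MEG8 and, from their continuation, the SNORD113 and SNORD114 snoRNAs and a large group of microRNAs. On chromosome 15 the paternal SNRPN-SNHG14 transcript carries the SNORD116 and SNORD115 repeats in its introns, and loss of SNORD116 is linked to Prader-Willi syndrome. Box C/D snoRNAs guide 2′-O-methylation of ribosomal and spliceosomal RNA, but these repeat families have few settled targets, and SNORD115 is known chiefly from brain.

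The sequence in front of the host transcripts is shown because these snoRNAs are processed from the host transcripts, and because CG dinucleotides, in capitals here, are the bases at which imprinting marks are set. The RefSeq windows (GRCh38.p14) run from 250 bases before to 50 bases after an annotated start. Of the windows of each gene, the one with the most CG dinucleotides is printed, on the plus strand, for MEG3 at chr14:100825858-100826157 and for SNRPN at chr15:24954737-24955036.
MEG3: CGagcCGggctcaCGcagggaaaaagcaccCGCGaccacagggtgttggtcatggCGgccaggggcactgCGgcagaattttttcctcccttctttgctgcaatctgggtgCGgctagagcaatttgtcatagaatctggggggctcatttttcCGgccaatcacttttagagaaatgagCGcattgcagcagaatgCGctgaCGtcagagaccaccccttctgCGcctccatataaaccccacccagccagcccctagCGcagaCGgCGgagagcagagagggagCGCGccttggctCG
SNRPN: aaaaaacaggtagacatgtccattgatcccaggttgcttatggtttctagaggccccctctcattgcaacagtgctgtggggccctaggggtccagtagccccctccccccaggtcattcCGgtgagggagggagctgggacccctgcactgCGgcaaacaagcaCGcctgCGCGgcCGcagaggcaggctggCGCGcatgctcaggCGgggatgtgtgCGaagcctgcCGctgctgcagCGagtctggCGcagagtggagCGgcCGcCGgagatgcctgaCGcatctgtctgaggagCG

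The MEG3 window held 19 CG dinucleotides and the SNRPN window 18, against a median of 14 over 35116 windows of the same length. Each had been chosen as the highest of its gene, so this comparison does not show that these genes are rich in CG. Of all windows 57.1% and 55.5% held fewer. The other MEG3 windows held 17 and 18, and the other SNRPN windows 7, 2 and 11. The RTL1 window held 6 and the SNHG14 window 9. The letters TGACGTCA of the cAMP response element, which hold a CG and read alike on both strands, began at base 201 of the MEG3 window and were found in 1.85% of all windows. The letters CATTGT, a core at which SOX proteins bind, were in 10.8% of all windows when both strands were searched. They were in 0 MEG3, RTL1 and SNHG14 windows, and of the 4 SNRPN windows only the one at chr15:24956050-24956349 held them, with 2 matches. Such a match is a description of the letters and no evidence of binding.

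SOX2, a pluripotency factor and the target of the knock-down, had log2 signals of 12.28, 12.21 and 12.20 in 2102Ep controls and of 9.17, 9.30 and 8.80 after siSOX2, which left 11.4% of the control signal. In NTera-2 it had 12.51, 12.52 and 12.63 in controls and 11.92, 11.95 and 11.86 after siSOX2, which left 64%. SOX2 RNA thus fell past the test in both lines (adjusted p of 2.38e-08 and 0.0155 by limma). Array medians over all probe sets ran from 7.43 to 7.58, and arrays of 1 group correlated at 0.983 to 0.994 over all probe sets. The embryonal carcinoma list held 15 probe sets, with LIN28A and TERF1 repeated and with POU5F1 and NANOG not among them. Of these 15 the median per array was 11.15 to 11.47 in 2102Ep controls and 10.51 to 10.61 after siSOX2. In NTera-2 it was 11.31 to 11.76 and 11.02 to 11.08. After siSOX2, 9 of the 15, SOX2 among them, fell past the test (adjusted p of at most 0.05) in 2102Ep and 4 in NTera-2. None rose past it. Of all 32321 probe sets 914 and 279 fell past it. ZFP42, a pluripotency factor, was lower in NTera-2 controls by a log2 difference of -4.14. Leukocyte (9) and fibroblast (10) probe sets had medians of 6.40 to 6.71 and 6.80 to 7.39.

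The clearest difference in these clusters lay between the lines on chromosome 14. MEG3 and all 6 SNORD113 and SNORD114 probe sets were lower in NTera-2 controls than in 2102Ep controls, by 2.31-fold to 64-fold, and 6 of these 7 were also at least 2-fold lower between the siSOX2 arrays. RTL1 overlapped between the lines and DLK1 differed by less than 2-fold. A probe set is counted as called below when its adjusted p was at most 0.05 over all 32321 probe sets, its p at most 0.01 and its change at least 2-fold, and as having passed when only the adjusted p was met. Between the controls, 7 of the 9 members were called lower in NTera-2, against 2.61% of all probe sets called lower. Counting those that passed, 8 of 9 were lower against 14.6%, and in 8 of 9 all NTera-2 arrays lay below all 2102Ep arrays against 22.8%. The median change was -2.15 over the 9 members and -0.05 over all probe sets. For a single probe set, 3 arrays per group leave 0.1 as the smallest p of an exact two-sided permutation test, so limma pools the spread over probe sets.

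MEG3, a maternally expressed long non-coding RNA with growth-restraining activity, had log2 signals of 9.28, 8.69 and 9.38 in 2102Ep controls and 6.96, 6.71 and 7.12 in NTera-2 controls. The lowest 2102Ep array thus lay more than 1 log2 unit above the highest NTera-2 array. The difference was -2.19 ± 0.18 (SE; adjusted p = 3.08e-06), so that NTera-2 held 22.0% (95% interval 16.9 to 28.6) of the 2102Ep signal.

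SNORD114-3, a box C/D snoRNA in the introns downstream of MEG3, had signals of 10.70, 11.50 and 11.06 in 2102Ep controls and of 5.08, 5.49 and 5.16 in NTera-2 controls. It fell from the 93.2nd percentile of all probe sets in 2102Ep to the 17.5th in NTera-2, a difference of -5.84 ± 0.22 (SE; adjusted p = 1.17e-08) or 57.4-fold. SNORD113-4, of the neighbouring family, had 9.10, 10.49 and 8.55 against 3.04, 3.54 and 3.55. Its 2102Ep controls were the most spread of all members (SD 1.00), yet the difference of -6.00 ± 0.39 (SE; adjusted p = 5.67e-07) was 6 times that spread and 64-fold. SNORD114-26 had 8.72, 9.64 and 9.09 against 5.18, 4.61 and 4.79, which was 19.6-fold lower (log2 difference -4.29 ± 0.27, SE; adjusted p = 5.09e-07). For these 3 snoRNAs the groups stood far apart, with no array of 1 line within 3 log2 units of the other.

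The other 3 snoRNA probe sets were dim in both lines and differed less. SNORD113-3 had 5.26, 5.54 and 6.01 in 2102Ep controls and 3.27, 3.41 and 3.70 in NTera-2 controls, a difference of -2.15 ± 0.17 (SE). SNORD114-2 had 4.80, 4.68 and 5.04 against 3.40, 3.21 and 3.54, a difference of -1.46 ± 0.17 (SE). Both were called with clear gaps between the lines. SNORD114-6 had 3.72, 4.58 and 3.67 against 2.86, 2.84 and 2.65 (difference -1.21 ± 0.24, SE; adjusted p = 0.00247), and it fell to -0.91, below 2-fold, without 2102Ep control replicate 2. The array table gives no detection call and signals this low are compressed, so folds at the bottom of the range can be too small. Only 2 SNORD113 and 4 SNORD114 symbols of the 9 and 31 in RefSeq had a probe set that entered.

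The protein-coding genes of the domain did not follow. RTL1 had 6.75, 6.37 and 6.47 in 2102Ep controls and 6.63, 6.24 and 6.55 in NTera-2 controls, so the arrays overlapped. Its difference was -0.06 ± 0.16 (SE), with a 95% interval from -0.39 to 0.28. DLK1 had 8.82, 9.17 and 9.11 against 8.28, 8.63 and 8.40, lower in every NTera-2 array but only 1.51-fold (-0.60 ± 0.12, SE; adjusted p = 0.00302). Signals of different probe sets cannot be set against each other, so these values say nothing of how much RTL1 RNA there was relative to MEG3.

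**Figure D1:**
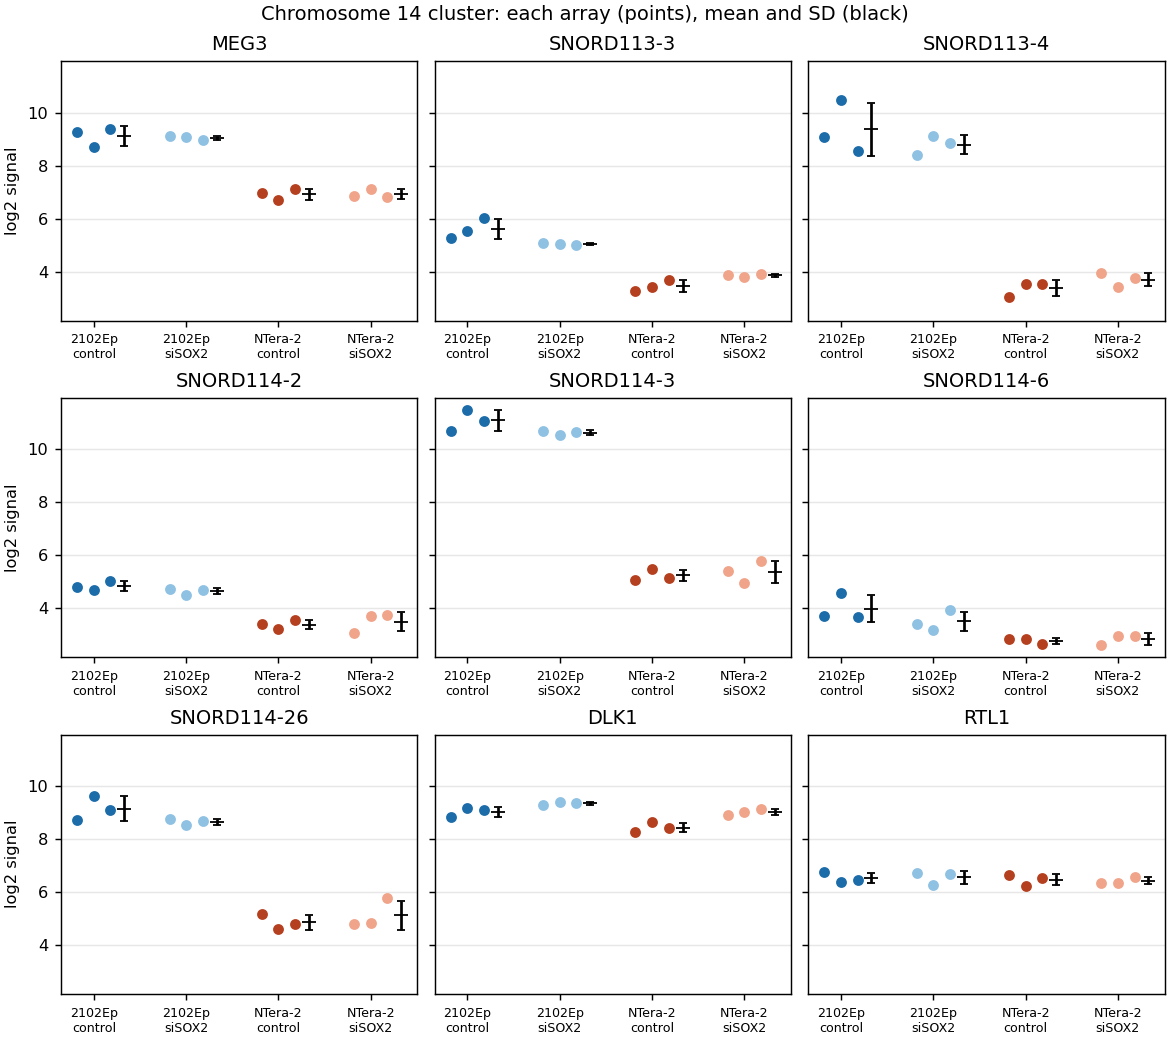
Log2 signal of the 9 members on chromosome 14, 1 panel per probe set, with coloured points for the 3 arrays of each group and a black mark and bar for their mean and SD. In every panel but that of RTL1 each NTera-2 array lies below every array of 2102Ep with the same siRNA, and the widest gaps are those of SNORD113-4 and SNORD114-3.

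The siSOX2 arrays, which share no array with the controls, gave the same order. Here 6 of 9 members were called lower in NTera-2, against 2.38% of all probe sets, and the same 6 passed, against 11.8%. In 8 of 9 the arrays did not overlap, against 19.8%. SNORD114-3 had 10.71, 10.53 and 10.65 in 2102Ep siSOX2 arrays and 5.40, 4.96 and 5.78 in NTera-2 siSOX2 arrays (-5.25 ± 0.22, SE). SNORD113-4 had 8.42, 9.11 and 8.87 against 3.94, 3.44 and 3.74 (-5.09 ± 0.39, SE). MEG3 had 9.10, 9.06 and 8.95 against 6.85, 7.13 and 6.80 (-2.11 ± 0.18, SE).

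SNORD114-26 differed by -3.53, SNORD113-3 by -1.19 and SNORD114-2 by -1.16 on the log2 scale. SNORD114-2 missed 2-fold, at -0.94, when NTera-2 siSOX2 replicate 1 was left out, the lowest of its 3 arrays at 3.07 beside 3.70 and 3.74. SNORD114-6 (-0.66, adjusted p = 0.0608), DLK1 (-0.32, adjusted p = 0.0759) and RTL1 (-0.12, adjusted p = 0.603) did not pass. Probe sets whose mean over the 12 arrays was below the median of all probe sets were left out in 1 alternative. That removed 6 of the 9 members, and 2 of the 3 left were called in each line comparison.

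Knock-down of SOX2 moved no chromosome 14 member by 2-fold within a line. In 2102Ep 0 of 9 members passed by limma, against 2.83% of all probe sets lower and 3.15% higher. Of the 9, 2 had an unadjusted p under 0.05, as had 5181 of all 32321 probe sets. Counts this small lie near those shares. The changes ran from -0.58 to 0.32. In NTera-2 1 of 9 passed and 0 were called, with changes from -0.05 to 0.60. The changes of MEG3 were -0.08 (95% interval -0.46 to 0.31) in 2102Ep and -0.00045 (-0.38 to 0.38) in NTera-2, so intervals of both lines leave out a 2-fold change. The SNORD113 and SNORD114 medians were -0.57 and -0.47 in 2102Ep, 0.36 and 0.13 in NTera-2, with 0 members of either family past the test. Their median SEs were 0.28 and 0.23, so this count does not show that these snoRNAs were unchanged.

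DLK1 was the member that passed, and it rose in NTera-2 from 8.28, 8.63 and 8.40 to 8.92, 9.03 and 9.15 (0.60 ± 0.12, SE; adjusted p = 0.0276). All 3 siSOX2 arrays lay above the controls. Of all probe sets 1.06% passed in that direction. In 2102Ep DLK1 had 8.82, 9.17 and 9.11 before and 9.30, 9.40 and 9.35 after, again without overlap, but its change of 0.32 ± 0.12 (SE) had an adjusted p of 0.202. The 2 changes did not differ past the test (-0.28, adjusted p = 0.691).

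Of the difference in response, 2102Ep minus NTera-2, 0 of 60 members were called and 0 passed by limma, against 1.03% and 1.96% of all probe sets. An unadjusted p under 0.05 was found for 12 of the 60 and for 3394 of all 32321 probe sets. SNORD113-3 came nearest on chromosome 14. Its signals went from 5.26, 5.54 and 6.01 to 5.08, 5.05 and 5.00 in 2102Ep and from 3.27, 3.41 and 3.70 to 3.873, 3.796 and 3.895 in NTera-2. The difference of -0.96 ± 0.24 (SE) had an adjusted p of 0.0698, and without 2102Ep control replicate 1 it was called at -1.13 with an adjusted p of 0.0232.

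The microRNAs made from the same maternal transcript were represented by 16 probe sets, most of them dim, with medians per array of 4.05 to 4.42 in 2102Ep and of 3.62 to 3.99 in NTera-2. A probe set carries the symbol of the precursor gene, and whether it read the precursor or the mature form cannot be told apart here. Between the controls 3 of 16 passed lower in NTera-2, a share near the 14.6% of all probe sets, 0 passed higher and 0 were called. The median of the list was -0.20, beside -0.05 over all probe sets. MIR323A had 4.55, 4.23 and 4.29 in 2102Ep and 3.95, 3.71 and 3.77 in NTera-2 (-0.54, adjusted p = 0.0223). MIR134 had 7.39, 7.62 and 7.50 against 7.29, 7.08 and 7.19 (-0.32, adjusted p = 0.0348). MIR377 had 3.61, 3.61 and 3.52 against 3.34, 3.21 and 3.17 (-0.34, adjusted p = 0.0348). The arrays of the lines did not overlap for these 3, but the gaps were small beside those of the snoRNAs.

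The mature RNAs of those 3 precursors are printed from RefSeq so that the products are identified, with the seed (bases 2 to 8), by which a microRNA pairs with its targets, in capitals. All 3 genes lie on the plus strand of chromosome 14, and the 6 seeds are distinct.
hsa-miR-323a-5p: aGGUGGUCcguggcgcguucgc
hsa-miR-323a-3p: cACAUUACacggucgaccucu
hsa-miR-134-5p: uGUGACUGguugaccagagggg
hsa-miR-134-3p: cCUGUGGGccaccuagucaccaa
hsa-miR-377-5p: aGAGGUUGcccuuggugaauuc
hsa-miR-377-3p: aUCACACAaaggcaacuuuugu
In the siSOX2 arrays none of the 3 passed, and 1 of 16 did, against 11.8% of all probe sets. This was MIR382, with 4.37, 4.54 and 3.70 in 2102Ep and 3.54, 3.51 and 3.74 in NTera-2 (-0.61, adjusted p = 0.0255). Its arrays overlapped. Neither knock-down moved any of the 16 past the test, with 2 (2102Ep) and 0 (NTera-2) at an unadjusted p under 0.05. Of all 32321 probe sets 5181 and 3338 had such a p.

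Other genes around the cluster showed no shared direction. Of BEGAIN, DIO3 and DIO3OS, the imprinted neighbours that were measured, 0 passed between the controls, and DIO3, a deiodinase that inactivates thyroid hormone, was lower in NTera-2 siSOX2 arrays by -0.61 (adjusted p = 0.0129). Of 12 probe sets of flanking genes that are not imprinted, 3 passed lower and 1 higher between the controls, with a median of -0.07. Of all probe sets 14.6% passed in each direction. WARS1, a tryptophan tRNA ligase, was the only one of the 12 called (-1.31, adjusted p = 3.93e-06). With each array centred on other box C/D snoRNAs it came to -0.92.

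Genes that set or protect imprints also differed between the lines. Of 21 probe sets, 7 passed lower and 6 higher in NTera-2 controls, against 14.6% of all probe sets in each direction, and the median was -0.18. DNMT3L, the cofactor of de novo DNA methylation, was lower by -3.03 ± 0.12 (SE; adjusted p = 2.22e-08). DPPA3, which shields maternal methylation in the zygote, was lower in both its probe sets (-3.53 and -3.04), and KHDC3L, a maternal-effect gene, by -1.47. TET2, an enzyme that oxidises methylated cytosine, was higher in both of its probe sets (1.07 and 1.58). One of these, at 0.95 without 2102Ep control replicate 2, then missed 2-fold. Of 21 probe sets of imprinted genes elsewhere, 4 passed lower and 4 higher, with a median of -0.01, so imprinted genes elsewhere showed no shared direction. Among them, PEG10 (1.28) and GRB10 (1.10) were called higher and TFPI2 (-1.68) lower in NTera-2.

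Markers of neurons moved with the line as well. Of 13 probe sets, several of them of the same gene RBFOX3, 6 passed higher and 1 lower in NTera-2 controls, led by MAP2 (3.02). Of all probe sets 14.6% passed in each direction. The median per array was 7.07 to 7.19 in 2102Ep and 7.48 to 7.76 in NTera-2 controls. The part of these genes, and of those that set imprints, in the differences of the clusters was not tested. In bulk RNA, fewer cells that express a gene and less RNA per cell cannot be told apart.

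On chromosome 15 the SNORD116 repeat was bright in both lines and slightly higher in 2102Ep controls than in the other 3 groups. The 26 probe sets had means over the 12 arrays from 4.57 to 14.06, with a median at the 91.7th percentile of all probe sets. SNORD116-15 was the brightest, with 14.15, 14.21 and 14.30 in 2102Ep controls, 14.08, 14.06 and 14.13 after siSOX2, 14.11, 13.98 and 13.95 in NTera-2 controls and 13.87, 13.96 and 13.89 after siSOX2. SNORD116-14 came next, with means of 13.42 to 13.79. SNORD116-10 and SNORD116-18 were the dimmest, with means of 4.39 to 4.94 and 4.52 to 5.03. These are copies of 1 repeat. Probe sets share symbols (SNORD116-6 is named on 3 of them) and may share transcripts, so they are not independent measurements, and brightness also depends on the probe.

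After knock-down of SOX2 in 2102Ep, 15 of 26 SNORD116 probe sets fell past the test and 0 rose, against 2.83% of all probe sets lower and 3.15% higher. Of the 26, 24 had all siSOX2 arrays below all controls, against 10.6%. The median change was -0.66 over the family, with a range from -1.09 to -0.13, and -0.03 over all probe sets. Only 1 was called, against 0.631% of all probe sets called lower, namely the probe set of SNORD116-6 and SNORD116-2. It had 10.33, 10.53 and 10.84 in controls and 9.49, 9.37 and 9.56 after siSOX2 (-1.09 ± 0.15, SE; adjusted p = 0.000757), and it came to -0.96 without 2102Ep control replicate 3.

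Single copies differed in size but not in sign. SNORD116-12 fell from 6.57, 6.91 and 6.79 to 5.95, 5.80 and 5.66 (-0.95 ± 0.16, SE; adjusted p = 0.00329). SNORD116-27 fell from 8.94, 9.43 and 9.15 to 8.37, 8.39 and 8.53 (-0.74 ± 0.12, SE; adjusted p = 0.00312). SNORD116-21 fell from 11.85, 11.76 and 11.96 to 11.16, 11.25 and 11.15 (-0.67 ± 0.10, SE; adjusted p = 0.00146). These 3 span dim to bright probe sets, and none overlapped between the groups. By contrast SNORD116-15 changed by -0.13 ± 0.09 (SE; adjusted p = 0.548).

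The brightest probe sets changed least. The 7 with a mean of at least 12 changed by -0.51 to -0.13 (median -0.22), of which 1 passed. The 19 others changed by -1.09 to -0.50 (median -0.72), of which 14 passed. Over the 26 probe sets, which share arrays and sequence, Pearson's r between mean signal and change was 0.51 and Spearman's rho 0.55. Signals near the top of the scale can be compressed, and whether this holds for the 7 was not tested.

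**Figure D2:**
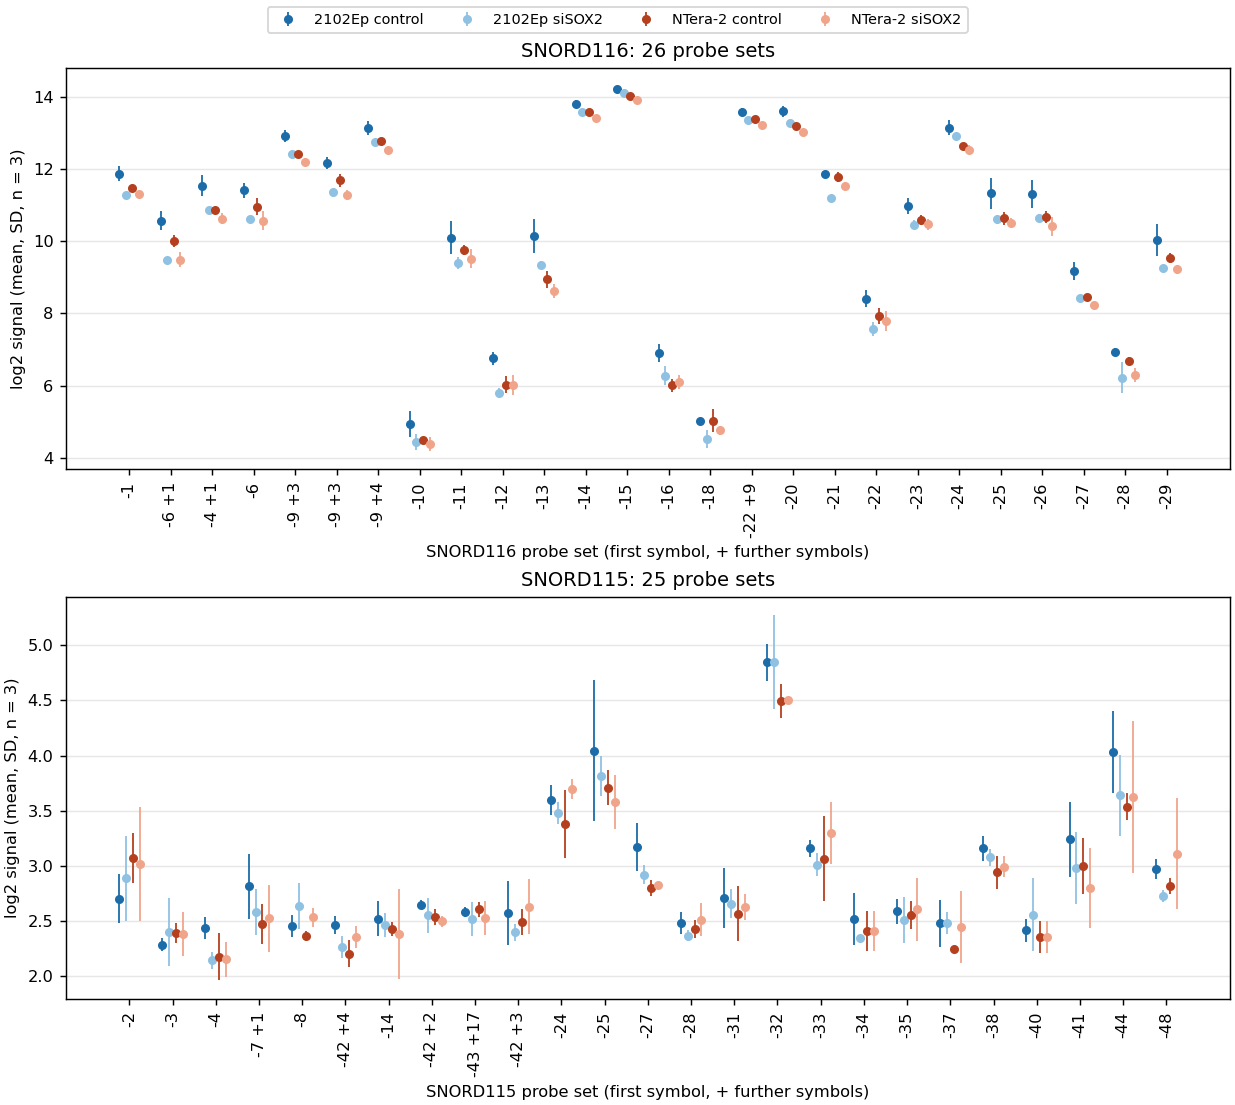
Mean log2 signal and SD (n = 3 arrays) in the 4 groups for the 26 SNORD116 probe sets (top) and the 25 SNORD115 probe sets (bottom), in the order of the table, each named by its first symbol with the number of further symbols after a plus sign. The 2102Ep controls (dark blue) lie highest over most of SNORD116, whereas SNORD115 stays between 1.94 and 5.33 on every array.

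Some box C/D snoRNAs outside the clusters fell as well. Of 72 such probe sets, 6 passed lower and 0 higher in 2102Ep, against 2.83% and 3.15% of all probe sets. Among the 6 were SNORD63 (-0.90), SNORD44 (-0.72) and SNORD38A (-0.49), and the median of the 72 was -0.31. Of 82 box H/ACA snoRNA probe sets, which belong to the class that guides pseudouridylation, 2 passed lower and 0 higher, near those shares. Their median was -0.19, beside -0.03 over all probe sets. The median over the 72 was 9.28, 9.78 and 9.80 on the 2102Ep control arrays and 9.05, 9.06 and 9.10 on the siSOX2 arrays. For SNORD116 it was 10.88, 11.58 and 11.35 against 10.63, 10.50 and 10.63. Control replicate 1 was the lowest of the 3 controls in both of these medians and in 23 of 26 SNORD116 probe sets. It was not the lowest in the median of SNORD115, which was 2.68, 2.69 and 2.61.

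When each array was centred on the median of those 72 snoRNAs, an alternative chosen after seeing these medians, 2 of 26 SNORD116 probe sets passed in 2102Ep instead of 15. That centring moved the median change of all probe sets from -0.03 to 0.52, so it shows the family relative to other snoRNAs and not to most genes. The array medians of the 72 averaged 9.62 in controls and 9.07 after siSOX2, a larger fall than the median of their changes given above. The centring thus took off more than the median change of these snoRNAs. The count of 2 therefore does not give the part of the SNORD116 fall that they share. The count of 15 came to 9 and 8 without 2102Ep siSOX2 replicate 2 or 3, and to 7 when the 6 arrays of 2102Ep were fitted alone. The count of called members was 0 without control replicate 3, 2 without siSOX2 replicate 1 and 3 without control replicate 1. Of 9 probe sets of core proteins and assembly factors of box C/D particles, 1 passed lower (PIH1D1 at -0.40) and 0 higher, against 2.83% and 3.15% of all probe sets. Their median was -0.15, with 8 of 9 below 0, and NOP56 and SNU13 were not among them. Of 7 RNA exonuclease and decay probe sets 0 passed by limma and 0 had an unadjusted p under 0.05, as had 5181 of all 32321. Counts this small lie near those shares and do not show that these genes were unchanged.

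Trophoblast and amnion markers moved in both directions in the same cells. Of 9 probe sets 6 passed higher and 2 lower after siSOX2 in 2102Ep, against 3.15% and 2.83% of all probe sets. HAND1 rose by 4.03, TFAP2A by 2.44 and GATA3 by 2.15, whereas ERVW-1 changed by -1.15 (-0.99 without 2102Ep control replicate 1) and TFAP2C by -0.63. CGA did not pass (0.01, adjusted p = 0.986), and the median per array went from 7.80 to 7.91 in controls to 9.37 to 9.56. The part of these markers in the fall of the snoRNAs was not tested.

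In NTera-2 0 of 26 SNORD116 probe sets passed by limma, and 5 had an unadjusted p under 0.05. Of all 32321 probe sets 279 passed lower and 343 higher, 3338 had an unadjusted p under 0.05, and 0.476% were called. The count of 0 among 26 that passed thus lies near the share of all probe sets. The changes were from -0.51 to 0.08 with a median of -0.23, beside 0.04 over all probe sets. They were below 0 in 25 of 26, as in 13353 of all 32321 probe sets, and in 14 of 26 the siSOX2 arrays lay below the controls, against 6.06% of all probe sets. The probe set of SNORD116-6 and SNORD116-2 had 10.12, 9.80 and 10.07 before and 9.26, 9.53 and 9.69 after (-0.51 ± 0.15, SE; adjusted p = 0.156). The differences in response, 2102Ep minus NTera-2, were below 0 in 26 of 26, as in 19274 of all 32321 probe sets. Their median was -0.41, beside -0.05 over all probe sets, and 10 of 26 had an unadjusted p under 0.05, as had 3394 of all 32321. These copies are not independent, and the response of the family as a whole was not tested. No member's response differed between the lines past the test, and the nearest was SNORD116-12 (-0.95 ± 0.23, SE; adjusted p = 0.0608), which had 6.20, 6.13 and 5.76 before and 5.72, 6.23 and 6.15 after in NTera-2. Without NTera-2 siSOX2 replicate 1, 1 chromosome 15 member was called for this difference.

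**Figure D3:**
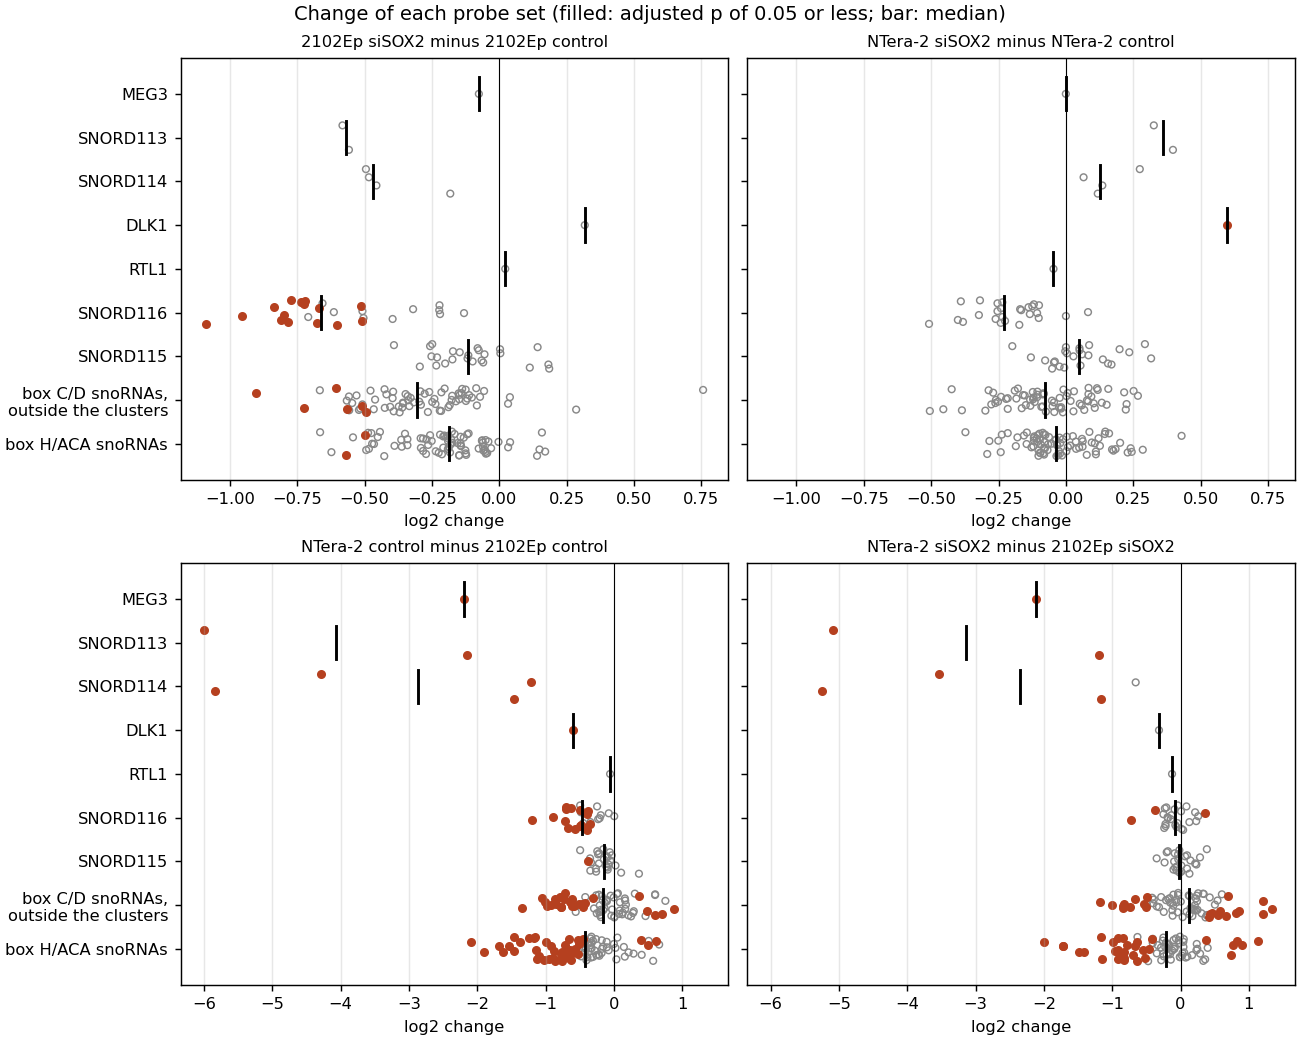
Log2 change of each probe set in 4 comparisons, by family, with the box C/D snoRNAs outside the clusters and the box H/ACA snoRNAs for reference, filled where the adjusted p was 0.05 or less and with a bar at the median. The 2 panels of a row share a scale, and the scale of the line comparisons (bottom) is wider than that of the knock-downs (top). SNORD113 and SNORD114 stand apart between the lines, and SNORD116 lies below 0 after siSOX2 in 2102Ep beside a smaller fall of other snoRNAs.

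Between the controls of the 2 lines, SNORD116 was lower in NTera-2. Of 26 probe sets 16 passed lower and 0 higher, against 14.6% of all probe sets in each direction. The median was -0.47, beside -0.05 over all probe sets, and in 19 of 26 the arrays did not overlap, against 22.8%. This comparison uses the same 2102Ep control arrays as the knock-down in 2102Ep, so a high value in those arrays lowers both. SNORD116-13 was the only one called (-1.20 ± 0.20, SE; adjusted p = 0.000828), with 9.79, 10.67 and 9.99 in 2102Ep controls and 8.94, 9.18 and 8.72 in NTera-2 controls. It came to -0.94 without 2102Ep control replicate 2, the highest of its 3 arrays. The count of 16 came to 10 and 9 without NTera-2 control replicate 2 or 3, to 9 with only the arrays compared and to 1 when centred on the other box C/D snoRNAs.

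In the siSOX2 arrays, which are another condition and not the same comparison without these control arrays, the difference was smaller. Between the siSOX2 arrays of the 2 lines, 2 of 26 passed lower and 1 higher, against 11.8% and 16.4% of all probe sets, and the median was -0.08. SNORD116-13 was again lower in NTera-2, with 9.42, 9.24 and 9.38 against 8.52, 8.85 and 8.51 (-0.72 ± 0.20, SE; adjusted p = 0.0186). Its arrays thus did not overlap between the lines under either siRNA. SNORD116-24 was lower by -0.38 (adjusted p = 0.0299) and SNORD116-21 higher by 0.35 (adjusted p = 0.0207).

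**Figure D4:**
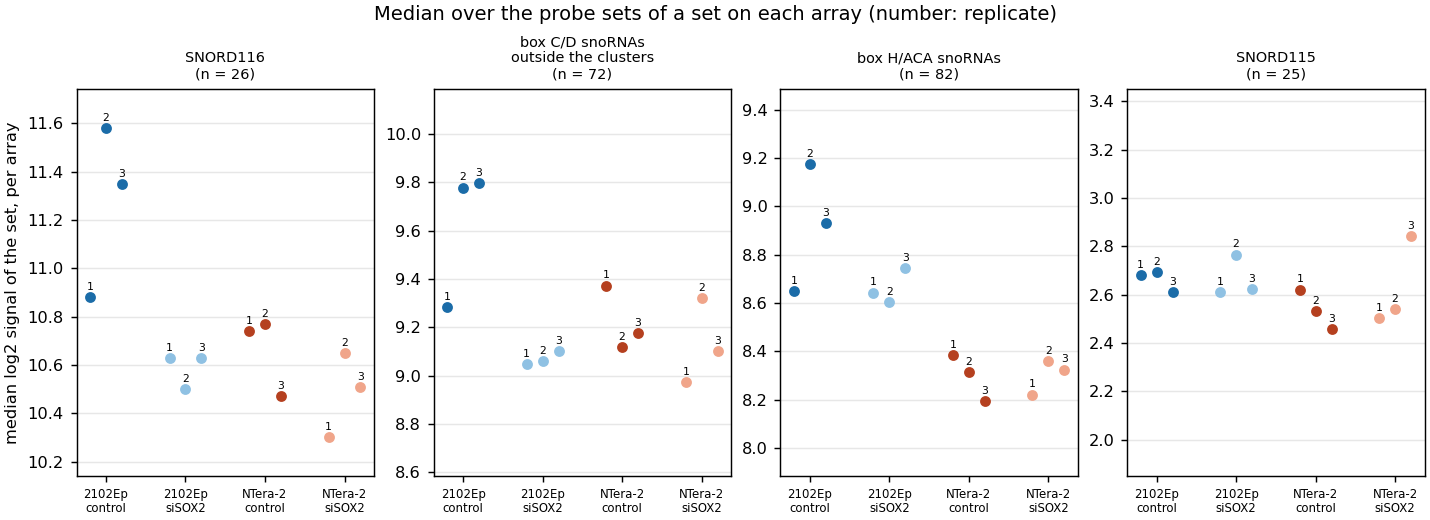
Median log2 signal per array over SNORD116, the box C/D snoRNAs outside the clusters, the box H/ACA snoRNAs and SNORD115, with the replicate number beside each point and the same height of scale in each panel. Control replicate 1 of 2102Ep lies below the other 2 controls in the first 3 panels, where replicates 2 and 3 are the highest of the 12 arrays.

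SNORD115 was at the bottom of the range throughout. Its 25 probe sets, which name 41 of the 48 symbols in RefSeq, had a median at the 1.1th percentile of all probe sets and at most the 12th. The brightest, SNORD115-32, had 4.66, 4.98 and 4.89 in 2102Ep controls and 4.33, 4.63 and 4.52 in NTera-2 controls, and the dimmest, SNORD115-4, had 2.53, 2.33 and 2.45 against 1.94, 2.36 and 2.23. By limma 0 of 25 passed after either knock-down, with 2 (2102Ep) and 1 (NTera-2) at an unadjusted p under 0.05, and median changes of -0.12 and 0.05. Few of all 32321 probe sets passed, with 914 lower and 1018 higher in 2102Ep and 279 and 343 in NTera-2. An unadjusted p under 0.05 was found for 5181 and 3338, so the counts of 2 and 1 lie below those shares. Between the controls 1 of 25 passed, fewer than the 14.6% of all probe sets. This was SNORD115-27, with 3.02, 3.42 and 3.08 in 2102Ep and 2.77, 2.88 and 2.74 in NTera-2 (-0.37, adjusted p = 0.0244). A difference at this level of signal was hardly detectable on this array, and none of these values says that the RNA was absent.

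The rest of the chromosome 15 domain was uneven. In 2102Ep, 3 of 11 neighbouring probe sets fell past the test after siSOX2 and 0 rose, against 2.83% of all probe sets lower and 3.15% higher. SNORD64 and PWAR5, which share a probe set and lie between SNRPN and SNORD116, went from 10.91, 11.25 and 11.62 to 9.74, 10.25 and 10.35 (-1.15 ± 0.20, SE; adjusted p = 0.0044). This was called, but came to -0.97 without control replicate 3 and -0.96 without siSOX2 replicate 1. SNORD109A and SNORD109B, single snoRNAs at the flanks of the repeats, fell by 0.75 on the log2 scale (adjusted p = 0.00831).

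SNURF and SNRPN, the protein-coding head of the host transcript, had 11.46, 11.45 and 11.40 in controls and 10.99, 11.11 and 11.02 after siSOX2 in 2102Ep (-0.40 ± 0.09, SE; adjusted p = 0.0142). In NTera-2 controls they had 11.98, 12.14 and 12.11. The host head was thus higher in NTera-2 (0.64, adjusted p = 0.000161) where SNORD116 was lower, and after siSOX2 it was higher by 0.80. PWAR6, a non-coding RNA of the same region, was also higher in NTera-2, with 8.92, 8.85 and 9.06 against 7.52, 7.33 and 8.04 in controls (1.31, adjusted p = 6.26e-05). In the siSOX2 arrays its difference was 1.03, or 0.97 without 2102Ep siSOX2 replicate 3. UBE3A, the ubiquitin ligase of Angelman syndrome that is read from the maternal copy in neurons, was higher by 0.55 in controls. MKRN3, MAGEL2, NDN and NPAP1, paternal genes upstream of SNRPN, passed in none of the 4 comparisons of 2 groups. The probe set of SNORD115-23 and PWAR4, left out of the members, lay between 2.57 and 3.27.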

How the data were processed

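The deposited values are log2 signals that the authors made by robust multi-array averaging of 12 arrays, from 1.57 to 14.98, with the log base taken from this range. The version of the scanner software and the genome build of the annotation were not given in the sources used here, where the submitters' notes list limma. Such averaging compresses low signals, and precision is limited by having 3 arrays per group. Probe sets were named from the platform annotation, and all 80 symbols of the members matched RefSeq (GRCh38.p14), used for names and sequences.

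All arrays were fitted together, 1 mean per group, with lmFit, contrasts and eBayes in limma 3.58.1 (R 4.3.3), over 32321 probe sets and 5 contrasts, with Benjamini-Hochberg adjustment within each. Plots and sequences used Python 3.11.15, pandas 2.3.3 and matplotlib 3.10.9. On simulated data for NTera-2 against 2102Ep controls, 96% of 100 probe sets changed by 1.5 and 99% of 100 changed by 3 (log2) were recovered over 32321 probe sets, with 3 false calls. The noise was drawn independently for each probe set. The simulation therefore says nothing of smaller changes or of shifts that many probe sets share on an array.

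Members and lists were chosen with earlier results of these data known. Named are all chromosome 14 members, the 2 brightest and 2 dimmest probe sets of each snoRNA family, the called ones, and up to 4 of each other list with the smallest adjusted p in each contrast. SNORD116-12, SNORD116-21, SNORD116-24, SNORD116-27 and SNORD115-27 were named after their values were seen. The lists were embryonal carcinoma, neuron, fibroblast, leukocyte, and trophoblast and amnion markers, other snoRNAs, snoRNP proteins, RNA decay, imprint maintenance, other imprinted genes, microRNAs, and neighbouring and flanking genes. The labels call replicates biological without naming separate cultures, so p-values measure the spread between these samples.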

Additional observations from a re-analysis of the deposited data

Results flagged for a closer look

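The responses to siSOX2 of 12 genes outside the clusters, all those of the gene lists that passed limma's test of the difference (2102Ep minus NTera-2), differed between the lines. No member of the clusters did. SOX2 itself fell further in 2102Ep, by a difference of -2.49 ± 0.17 on the log2 scale (SE; adjusted p = 1.52e-05). Of the trophoblast and amnion list, HAND1 (2.26, adjusted p = 3.89e-06), TFAP2A (2.49, adjusted p = 1.52e-05), GATA3 (1.35, adjusted p = 0.0053), CDX2 (1.21, adjusted p = 0.00597) and KRT7 (0.744, adjusted p = 0.0328) had positive differences. TFAP2C (-1.06, adjusted p = 0.0064) and ERVW-1 (-0.98, adjusted p = 0.028) had negative ones.

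PLAGL1, an imprinted zinc finger gene, changed by 1.01 in 2102Ep and by -0.35 in NTera-2, a difference of 1.36 ± 0.12 (SE; adjusted p = 9.96e-05). Its change in 2102Ep missed 2-fold without 2102Ep control replicate 2 (0.99) or 2102Ep siSOX2 replicate 3 (0.98). KHDC3L fell by 0.89 in 2102Ep and changed by -0.14 in NTera-2, a difference of -0.74 ± 0.15 (SE; adjusted p = 0.0283). POSTN, of the fibroblast list, changed by 0.14 in 2102Ep and fell by 1.69 in NTera-2, a difference of 1.84 ± 0.26 (SE; adjusted p = 0.00244). GABRG3, a GABA receptor subunit gene that flanks the chromosome 15 domain, rose by 0.86 in NTera-2 and changed by -0.19 in 2102Ep, a difference of -1.04 ± 0.20 (SE; adjusted p = 0.0195).

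With 1 array left out at a time, 4 of the 12 lost the adjusted p. KRT7 lost it in 9 of 12 settings (up to 0.109), all but those without 2102Ep siSOX2 replicate 1, NTera-2 control replicate 2 or NTera-2 siSOX2 replicate 3. KHDC3L lost it in 9 of 12 (up to 0.094), all but those without 2102Ep control replicate 1 or 3 or NTera-2 control replicate 1. ERVW-1 lost it in 7 of 12 (up to 0.0832), all but those without any 1 of the 2102Ep controls, 2102Ep siSOX2 replicate 1 or NTera-2 siSOX2 replicate 2. GABRG3 lost it without 2102Ep siSOX2 replicate 1 (0.058), 2102Ep siSOX2 replicate 2 (0.0547) or NTera-2 control replicate 3 (0.0594), and missed 2-fold without 2102Ep control replicate 3 (-0.97) or NTera-2 siSOX2 replicate 3 (-0.87). TFAP2C missed 2-fold, at -0.98, without 2102Ep siSOX2 replicate 3 or NTera-2 control replicate 1. With all arrays, GABRG3 also missed 2-fold after median centring (-0.987) and after repeated quantile normalization (-0.978). TFAP2C missed it after that normalization (-0.995). Centred on the other box C/D snoRNAs, GABRG3 (-0.58, adjusted p = 0.314), TFAP2C, KHDC3L and ERVW-1 did not pass.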

How the results depend on the processing

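Adjusted p alone, with no 2-fold threshold, gave 1 chromosome 14 member in place of 0 for the NTera-2 knock-down, and on chromosome 15 15 in place of 1 for the 2102Ep knock-down, 17 in place of 1 between controls and 3 in place of 0 between siSOX2 arrays. Leaving out dim probe sets left 2 chromosome 14 calls in place of 7 between controls and of 6 between siSOX2 arrays, since only 3 members remained. Members with 1 symbol gave 0 in place of 1 for the 2102Ep knock-down. Centring on other box C/D snoRNAs, chosen after seeing the data, gave 0 on chromosome 15 for the 2102Ep knock-down and between controls, and 2 in place of 15 and 1 in place of 16 SNORD116 probe sets past the adjusted p, counts that were also added after seeing the data. It moved the median of all probe sets to 0.52, 0.13, 0.41, 0.34 and -0.05 in the 2102Ep and NTera-2 knock-downs, the difference in response, the controls and the siSOX2 arrays. In the 2102Ep knock-down it took off more than the median change of those snoRNAs. Fitting only the groups compared gave 7 in place of 15 and 9 in place of 16. Leaving out 1 array at a time, the chromosome 15 calls ran from 0 to 3 for the 2102Ep knock-down, from 0 to 1 for the difference in response and from 0 to 2 between controls. The chromosome 14 calls ran from 0 to 1 for the difference in response, and the SNORD116 counts from 8 to 18 and from 9 to 19.

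Same-numbered replicates showed no clear shared deviation (correlations from -0.25 to 0.19, 4 of 18 over 0.1), so the main fit used no pairing. Between control and siSOX2 they were 0.05, 0.08 and 0.10 in 2102Ep and -0.13, -0.09 and 0.06 in NTera-2. This check cannot exclude a shared culture or batch. With the replicate block the chromosome 14 calls were 7 between controls and 6 between siSOX2 arrays, the chromosome 15 call in 2102Ep stayed at 1, and 14 SNORD116 probe sets passed in 2102Ep and 14 between controls. The block changed no other count. Median centring, repeated quantile normalization, an intensity trend and probe sets with a symbol moved no count of members by more than 1.5 times. No called value changed sign.

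The 3 arrays per group, dim probe sets without a detection call and shared repeat sequence limit what these data resolve.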
